A study of Danio rerio with 12 samples.

Results

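At the 15-somite stage, when the first vessels and blood cells form, whole zebrafish embryos homozygous for a knock-in at etv2 were set against heterozygous ones. The comparison uses 6 of the 12 libraries of the study, chosen by their labels, 3 of each genotype. Both genotypes carried the allele etv2 Gt(2A-Gal4)ci32, which puts Gal4 at etv2, and heterozygous embryos carried it in 1 copy, so that no group is free of it. Fish with this allele and a UAS:GFP reporter, which Gal4 switches on, were crossed with each other. Their embryos were raised at 24 °C, assigned to a genotype from where they showed GFP, and frozen with dry ice in batches of 15 to 20. The labels do not state that the sorted genotype was checked in another way, nor that the batches came from separate clutches, so p-values measure the spread between these batches. The other 6 libraries are 3 of each genotype at 24 hpf (hours post fertilization), from embryos kept at 28 °C, and serve only for the comparison between stages.

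Etv2, also called Etsrp, is a transcription factor of the ETS family that stands near the top of the gene network of endothelial cells, which line blood vessels. In zebrafish it is made in the lateral plate mesoderm by precursors of endothelium and of part of the blood, and it binds DNA at sites with a GGAA core. Known targets include the genes of other ETS factors, of the blood regulators Tal1 and Lmo2 and of receptors for vascular endothelial growth factor (VEGF). These regulators, once made, keep the endothelial programme running.

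The table of the 15-somite stage has 31172 gene rows, of which 25146 were not equal in all 6 libraries and 18124 were high enough to test (a median of at least 16 normalized units). Each deposited value is the log2 of a normalized level relative to the median of its own row, so levels of different genes cannot be ranked. Values are given here as a percent of the geometric mean of the heterozygous libraries. Each difference is the homozygous minus the heterozygous mean of the log2 values, given with its standard error (SE), n = 3 libraries per genotype. A gene was called when its adjusted p (limma, Benjamini-Hochberg over all tested rows) was below 0.05, and "rose" and "fell" are used only of called genes. Libraries are called het 1 to het 3, hom 2, hom a and hom b, since 2 homozygous columns carried the same name. The total depth is not known, as the table holds no counts, but the worth of 1 read lay between 0.881 and 1.101 normalized units, so the libraries had similar depths. The first principal component separated the genotypes and held 44.3% of the variance. The next held 18.3% and set het 1 apart from the other libraries. A typical gene differed by 0.181 to 0.203 (median absolute log2 difference) between het 1 and the other heterozygous libraries. It differed by 0.133 between het 2 and het 3, and by 0.125 to 0.137 between homozygous libraries. Between genotypes the values were 0.229 to 0.258 for het 1 and 0.169 to 0.196 for het 2 and het 3. Het 1 thus differed from het 3 more than het 2 or het 3 did from any homozygous library.

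Homozygous embryos had more genes lower than higher. Of the 18124 tested genes, 723 fell (3.99%) and 190 rose (1.05%), together 5.04%. The falls were also larger, with a median of -0.79 against 0.44 for the rises, beside a median of 0.0031 over all tested genes. More than 2-fold changes numbered 287 among the falls and 31 among the rises, and more than 8-fold changes 20 and 1. Groups without overlap were found for 29.3% of the tested genes, 15.8% lower and 13.5% higher in homozygotes. The number of calls depended on single libraries: it was 167 without het 2, 397 without het 3, 552 without hom 2, 386 without hom a and 434 without hom b, and 727 without het 1. Of the called genes, 128 falls and 17 rises passed with every library left out in turn.

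**Figure D1:**
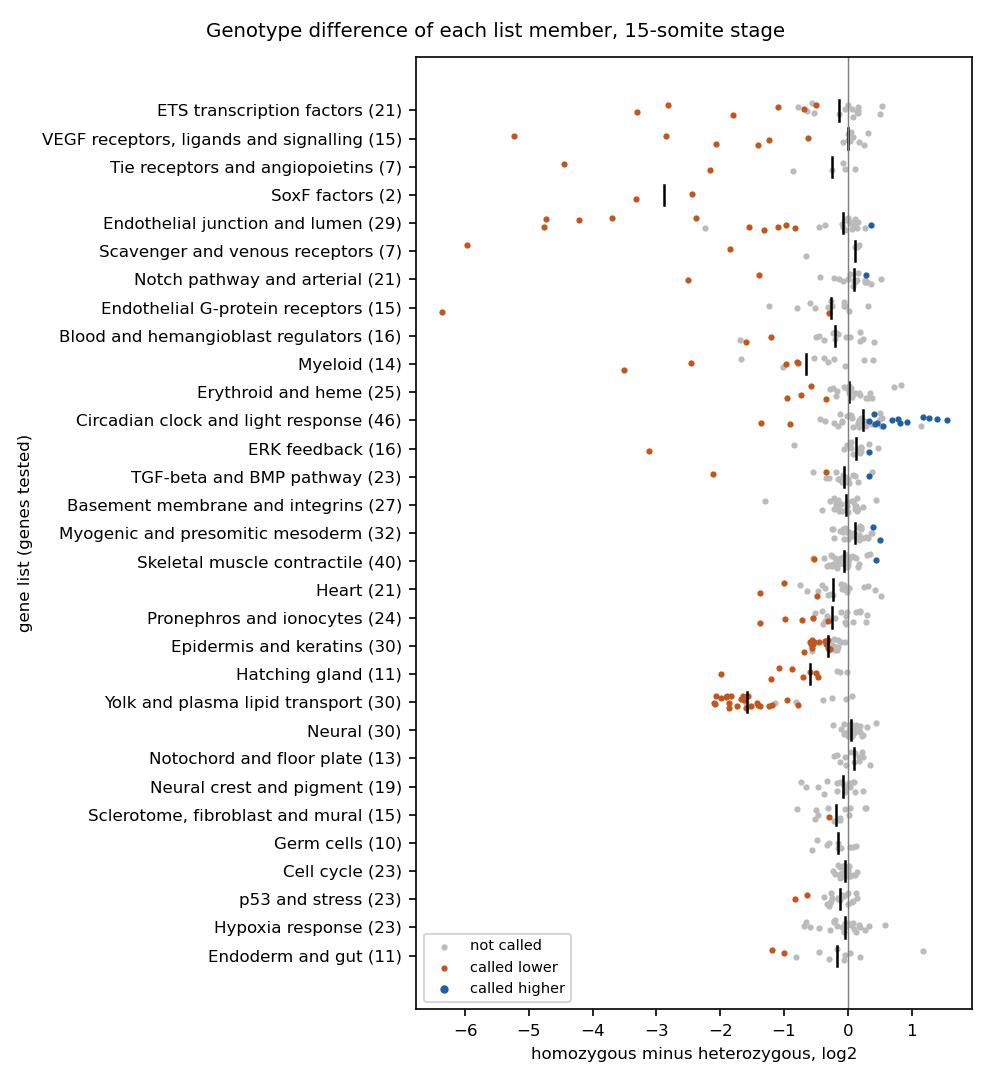
Log2 difference between homozygous and heterozygous embryos (horizontal axis) for each tested member of 31 gene lists (vertical axis, number tested in brackets). Each point is 1 gene, the black bar is the median of the list, orange points were called lower, blue points called higher and grey points not called. The largest falls lie in the vascular lists, the yolk and plasma list sits to the left as a block with a median of -1.58, and most blue points lie in the list of the circadian clock.

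The targeted gene came first. Transcripts of etv2 (ENSDARG00000053868) stood at 106%, 97.7% and 96.7% across het 1 to het 3, against 16.3%, 13.3% and 12.9% across hom 2, hom a and hom b. All 3 homozygous libraries lay far below all 3 heterozygous ones, and the gene fell by 2.83 on the log2 scale (SE 0.10, adjusted p = 0.000115). Transcript was still read in homozygotes, and the table does not tell which part of it, before or after the insertion, was counted.

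Other ETS factor genes of the vessel lineage fell with etv2. Of 21 tested ETS genes, etv2 itself among them, 6 fell and 0 rose, 28.6% against 5.04% of all tested genes. The median was -0.15. This list and the others were written with earlier results of these data known, so their shares are descriptions and not tests. The gene of Erg, an ETS factor that maintains endothelial identity, erg (ENSDARG00000077304), stood at 108%, 82% and 113% across het 1 to het 3, against 12.4%, 11.1% and 7.43% across hom 2, hom a and hom b. The paralogous factors fli1a and fli1b, which act in endothelial and blood precursors, kept more of their transcripts: fli1b (ENSDARG00000040080) stood at 92.7%, 108% and 99.9% across het 1 to het 3, against 24.6%, 28.8% and 33.3% across hom 2, hom a and hom b, and fli1a (ENSDARG00000054632) at 93.5%, 100% and 107% across het 1 to het 3, against 49.5%, 50.3% and 41.2% across hom 2, hom a and hom b. For all of these the genotypes did not overlap, and erg fell by 3.31 on the log2 scale (SE 0.25, adjusted p = 0.00125), fli1b fell by 1.80 on the log2 scale (SE 0.19, adjusted p = 0.00461) and fli1a fell by 1.1 on the log2 scale (SE 0.10, adjusted p = 0.0031). fli1b starts 9 kb from etv2 on chromosome 16, and whether the insertion at etv2 affects this neighbour was not tested. The remaining called members were elk3 (-0.69, adjusted p = 0.0249) and ets2 (-0.50, adjusted p = 0.0473), both widely expressed ETS factors. etv2, erg, fli1b and fli1a passed with each library left out in turn. elk3 did not pass when het 2, het 3, hom 2, hom a or hom b was left out (adjusted p 0.0635 to 0.0875). ets2 did not pass once any 1 of the 6 libraries was left out (adjusted p 0.0664 to 0.127). The list had 4 to 5 falls when 1 library was left out.

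**Figure D2:**
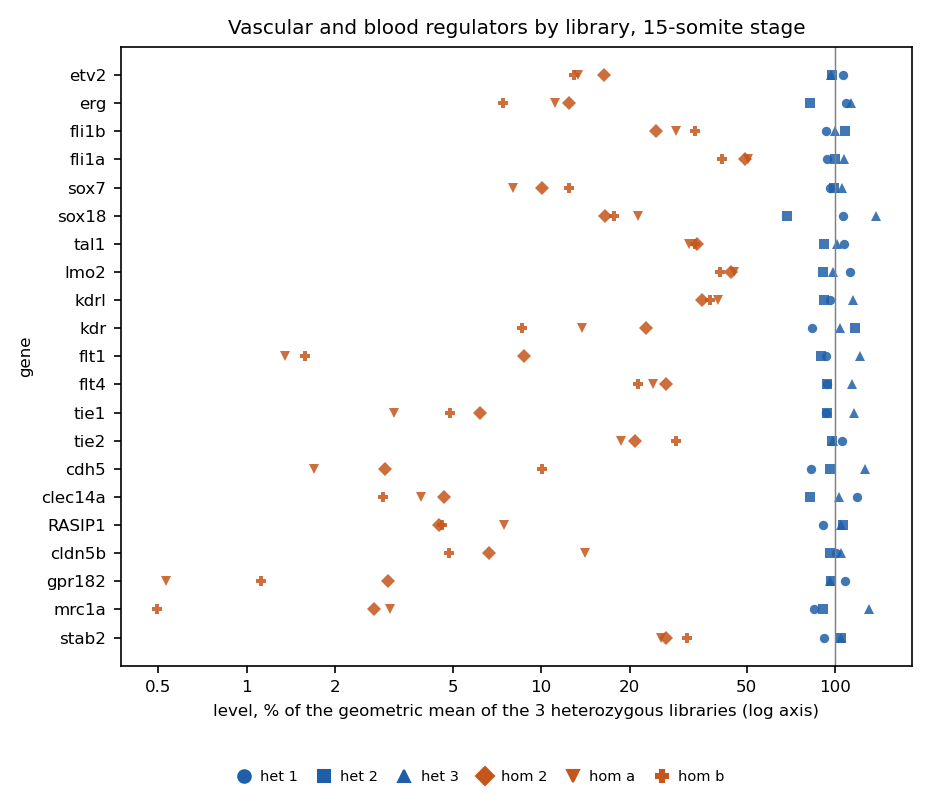
Level of vascular and early blood genes (vertical axis) in each library at the 15-somite stage, as a percent of the geometric mean of the heterozygous libraries (horizontal log axis). Blue symbols are het 1 to het 3, orange symbols hom 2, hom a and hom b, and each point is 1 library without an error bar. No gene shown has overlapping genotypes, and the homozygous points range from 0.494% (mrc1a in hom b) to 50.3% (fli1a in hom a).

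Receptors through which endothelial cells sense growth factors fell, while the ligands tested did not pass. The list of VEGF receptors, ligands and signalling held 15 tested genes, of which 6 fell and 0 rose. That is 40% against 5.04% of all tested genes, and the list median was 0.0043. The 4 VEGF receptor genes of zebrafish were among the called. The receptor gene flt1 (ENSDARG00000019371), whose product also traps VEGF, stood at 92.7%, 89% and 121% across het 1 to het 3, against 8.72%, 1.35% and 1.57% across hom 2, hom a and hom b. Its paralog kdr (ENSDARG00000017321) stood at 83%, 116% and 104% across het 1 to het 3, against 22.8%, 13.8% and 8.63% across hom 2, hom a and hom b. The main signalling receptor of early vessels, kdrl (ENSDARG00000015815), was least affected of the 4 and stood at 95.8%, 91.1% and 115% across het 1 to het 3, against 35.3%, 40% and 37.4% across hom 2, hom a and hom b. Hom 2 had the highest flt1 and kdr of the homozygous libraries, whereas kdrl was alike in all 3. flt1 fell by 5.24 on the log2 scale (SE 0.65, adjusted p = 0.00862), kdr fell by 2.84 on the log2 scale (SE 0.35, adjusted p = 0.00819) and kdrl fell by 1.41 on the log2 scale (SE 0.10, adjusted p = 0.00116). The deposited values had been floored at 1 normalized unit. For flt1, as for cdh5, myct1 and mrc1a among the other named genes, the level class of the row allows a homozygous library to lie there. The size of these 4 falls is therefore uncertain. The class puts the lowest library at no less than 1.64 units for INPP5D, 2.37 for clec14a, 3.18 for kdr and 3.72 for erg. CD93, sla1, scarf1, shank3b, dusp5 and sox7 have bounds within this range, so these low values may rest on few reads. flt4 (ENSDARG00000015717), the receptor gene of venous and lymphatic growth, fell by 2.07 on the log2 scale (SE 0.11, adjusted p = 0.000255). The co-receptor gene nrp1b fell less (-0.63, adjusted p = 0.0126). The remaining call was PLXND1 (2 of 2) (-1.23, adjusted p = 0.0306), a copy of the semaphorin receptor gene of endothelium, named after its values were seen and uncertain where its copies share reads. The ligand gene vegfaa, at 0.17, did not pass (adjusted p = 0.381). flt1, kdr, kdrl and flt4 passed with each library left out in turn. nrp1b did not pass when het 2 was left out (adjusted p = 0.0557). PLXND1 (2 of 2) did not pass when het 1, het 2, het 3, hom 2 or hom b was left out (adjusted p 0.0667 to 0.0964).

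Tie receptors, which bind angiopoietins and steady the vessel wall, and SoxF transcription factors, which act with ETS factors in endothelium, also had members that fell. Of 7 genes of the Tie and angiopoietin list 2 fell, 28.6% against 5.04% of all tested genes. The receptor gene tie1 (ENSDARG00000004105) stood at 92.7%, 93.3% and 116% across het 1 to het 3, against 6.21%, 3.17% and 4.91% across hom 2, hom a and hom b. The angiopoietin receptor gene tie2 (ENSDARG00000028663) stood at 105%, 97% and 98.3% across het 1 to het 3, against 20.9%, 18.6% and 28.6% across hom 2, hom a and hom b. Both receptors were far lower in every homozygous library, with less left of tie1 than of tie2, and tie1 fell by 4.45 on the log2 scale (SE 0.23, adjusted p = 0.000255) and tie2 fell by 2.16 on the log2 scale (SE 0.15, adjusted p = 0.00109). The angiopoietin gene angpt1 lay at -0.24 and did not pass (adjusted p = 0.453). Both tested SoxF genes fell: sox7 (ENSDARG00000030125) stood at 96.1%, 98.5% and 106% across het 1 to het 3, against 10.1%, 8.01% and 12.5% across hom 2, hom a and hom b and fell by 3.32 on the log2 scale (SE 0.21, adjusted p = 0.000541). The heterozygous values of sox18 (ENSDARG00000058598) were more scattered, and it stood at 106%, 68.4% and 137% across het 1 to het 3, against 16.5%, 21.3% and 17.7% across hom 2, hom a and hom b, and fell by 2.44 on the log2 scale (SE 0.27, adjusted p = 0.00644). tie1, tie2, sox7 and sox18 passed with each library left out in turn.

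Genes of endothelial junctions and of lumen formation included several of the largest falls. Of 29 tested members 10 fell and 1 rose, 37.9% against 5.04% of all tested genes, with a median of -0.07 over the list. Vascular endothelial cadherin, the adhesion protein of endothelial junctions, is encoded by cdh5 (ENSDARG00000075549), which stood at 82.6%, 95.9% and 126% across het 1 to het 3, against 2.95%, 1.69% and 10.1% across hom 2, hom a and hom b. The C-type lectin gene clec14a (ENSDARG00000026751), expressed by endothelium, stood at 118%, 82.2% and 103% across het 1 to het 3, against 4.69%, 3.92% and 2.91% across hom 2, hom a and hom b. A Ras-interacting protein needed to open vessel lumens is encoded by RASIP1 (ENSDARG00000074829), which stood at 90.5%, 106% and 104% across het 1 to het 3, against 4.5%, 7.49% and 4.62% across hom 2, hom a and hom b. Hom b kept more cdh5 than the other homozygous libraries, and clec14a and RASIP1 were low in all 3 alike. cdh5 fell by 4.76 on the log2 scale (SE 0.58, adjusted p = 0.00853), clec14a fell by 4.73 on the log2 scale (SE 0.24, adjusted p = 0.000252) and RASIP1 fell by 4.22 on the log2 scale (SE 0.19, adjusted p = 0.000252). The tight junction gene cldn5b (-3.70, adjusted p = 0.00337), the adaptor gene she (-2.38, adjusted p = 0.000255), and vsg1 (-1.54, adjusted p = 0.018) also fell. Smaller falls were those of tmem88a (-1.09, adjusted p = 0.00115) and egfl7 (-0.97, adjusted p = 0.0193), the gene of a matrix protein secreted by endothelium, both named after their values were seen. The endothelial gene ecscr lay at -2.25 and did not pass (adjusted p = 0.0569), and the paralog cldn5a lay at 0.27 (adjusted p = 0.164). The 1 rise was that of heg (0.36, adjusted p = 0.0309), a receptor gene of heart and vessel junctions. cdh5, clec14a, RASIP1, cldn5b, she and tmem88a passed with each library left out in turn. vsg1 did not pass when het 2, het 3, hom a or hom b was left out (adjusted p 0.0521 to 0.0559). egfl7 did not pass when het 2, het 3, hom 2, hom a or hom b was left out (adjusted p 0.0555 to 0.0776). heg did not pass when het 1, het 2, hom 2, hom a or hom b was left out (adjusted p 0.0558 to 0.117). The number of falls in the list was 6 without het 2. Since whole embryos were read, fewer endothelial cells and less RNA per endothelial cell cannot be told apart in any of these values.

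The 2 called genes with the largest falls, counted with or without a descriptive symbol, were receptor genes of venous and lymphatic endothelium. The G-protein-coupled receptor gene gpr182 (ENSDARG00000036616) stood at 108%, 96.4% and 96% across het 1 to het 3, against 3.01%, 0.53% and 1.12% across hom 2, hom a and hom b. The mannose receptor gene mrc1a (ENSDARG00000073928) stood at 84.5%, 90.8% and 130.4% across het 1 to het 3, against 2.69%, 3.05% and 0.494% across hom 2, hom a and hom b. No homozygous library held more than 3.05% of either. gpr182 fell by 6.37 on the log2 scale (SE 0.53, adjusted p = 0.00258) and mrc1a fell by 5.97 on the log2 scale (SE 0.65, adjusted p = 0.00541). The size for mrc1a depends on values that may lie at the floor of 1 normalized unit, whereas the level class of gpr182 puts its lowest library at 7.98 units or above. The scavenger receptor gene stab2 (ENSDARG00000045748), which takes up hyaluronan in veins, stood at 91.4%, 104% and 105% across het 1 to het 3, against 26.6%, 25.6% and 31.3% across hom 2, hom a and hom b and fell by 1.85 on the log2 scale (SE 0.10, adjusted p = 0.000255), while its paralog stab1 lay at 0.18 (adjusted p = 0.222). Of 7 tested scavenger and venous receptors mrc1a and stab2 fell, 28.6% against 5.04% of all tested genes. Of 15 tested G-protein-coupled receptor genes of endothelium 2 fell, gpr182 and the apelin receptor gene aplnrb (-0.30, adjusted p = 0.043), a share of 13.3%. gpr182, mrc1a and stab2 passed with each library left out in turn. aplnrb did not pass once any 1 of the 6 libraries was left out (adjusted p 0.0719 to 0.136).

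Among the 15 largest falls of genes with a descriptive symbol were 6 further genes not yet described. The scavenger receptor gene scarf1 (ENSDARG00000077285) stood at 98.4%, 90.5% and 112% across het 1 to het 3, against 3.68%, 5.98% and 4.29% across hom 2, hom a and hom b. The surface glycoprotein gene CD93 (ENSDARG00000074434), expressed by endothelial and myeloid cells, stood at 123%, 85.6% and 94.8% across het 1 to het 3, against 9.42%, 4.9% and 3.81% across hom 2, hom a and hom b. Shank3 is best known as a scaffold of synapses, and its gene shank3b (ENSDARG00000063054) stood at 87.5%, 102% and 112% across het 1 to het 3, against 6.99%, 11.2% and 5.3% across hom 2, hom a and hom b. The genotypes were far apart for each of these, and scarf1 fell by 4.46 on the log2 scale (SE 0.22, adjusted p = 0.000252), CD93 fell by 4.16 on the log2 scale (SE 0.34, adjusted p = 0.002) and shank3b fell by 3.74 on the log2 scale (SE 0.28, adjusted p = 0.00136). The Src-like adaptor gene sla1 (-3.84, adjusted p = 0.00541), the endothelial gene myct1 (-3.79, adjusted p = 0.0299) and INPP5D (-3.50, adjusted p = 0.0221), which encodes the lipid phosphatase SHIP1 of blood cells, also fell. In myct1 het 1 stood at 162%, and in INPP5D hom 2 stood at 27.2% against 4.88% and 5.15% in hom a and hom b. scarf1, CD93, shank3b and sla1 passed with each library left out in turn. myct1 did not pass when het 1, het 2, het 3 or hom 2 was left out (adjusted p 0.072 to 0.0775). INPP5D did not pass when het 1, het 2, het 3, hom a or hom b was left out (adjusted p 0.0505 to 0.0775).

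In pathways downstream of or next to VEGF signalling, single members were called. Of 16 tested genes of negative feedback on ERK, the kinase that VEGF receptors activate, 1 fell and 1 rose. That is 12.5%, against 5.04% of all tested genes. The ERK phosphatase gene dusp5 (ENSDARG00000019307), known in zebrafish for its vascular expression, stood at 102%, 94.2% and 104% across het 1 to het 3, against 7.18%, 14.1% and 15.4% across hom 2, hom a and hom b and fell by 3.11 on the log2 scale (SE 0.30, adjusted p = 0.00353). The feedback inhibitor gene spry4 rose (0.33, adjusted p = 0.0269). Of 23 tested genes of the TGF-beta and BMP pathway the ligand gene tgfb1b (-2.11, adjusted p = 0.0105) and the receptor gene tgfbr2 (-0.34, adjusted p = 0.0422) fell, and the ligand gene tgfb2 rose (0.33, adjusted p = 0.0202). The share called in that list was 13%. dusp5 and tgfb1b passed with each library left out in turn. spry4 and tgfb2 did not pass when het 2, het 3, hom 2, hom a or hom b was left out (adjusted p 0.0585 to 0.112). tgfbr2 did not pass once any 1 of the 6 libraries was left out (adjusted p 0.0776 to 0.141).

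The Notch and arterial list, contained 3 called genes. Of 21 tested members 2 fell and 1 rose, 14.3% against 5.04% of all tested genes, and the median was 0.09. Both falls were those of aquaporin genes: aqp8a.1 (ENSDARG00000045141), expressed in zebrafish vessels, stood at 108%, 107% and 87.1% across het 1 to het 3, against 14%, 20% and 19.7% across hom 2, hom a and hom b and fell by 2.5 on the log2 scale (SE 0.21, adjusted p = 0.00234), and aqp1a.1 fell less (-1.40, adjusted p = 0.0182). Of the Notch genes themselves, the ligand gene jag1a rose (0.29, adjusted p = 0.0462), while the arterial ligand gene dll4 stood at 117%, 102% and 83.8% across het 1 to het 3, against 56.5%, 76.8% and 94.4% across hom 2, hom a and hom b. The dll4 values of het 3 and hom b overlapped, and the difference of -0.43 did not pass (adjusted p = 0.346). The receptor gene notch1b lay at 0.36 (adjusted p = 0.124). aqp8a.1 passed with each library left out in turn. aqp1a.1 did not pass when het 3, hom 2, hom a or hom b was left out (adjusted p 0.0525 to 0.0627). jag1a did not pass once any 1 of the 6 libraries was left out (adjusted p 0.0679 to 0.163). The 27 tested genes of basement membrane and integrins, the matrix on which vessels rest and its receptors, had 0 falls and 0 rises by limma at adjusted p below 0.05, and 3 lower and 1 higher at an unadjusted p below 0.05.

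Regulators of the common precursors of blood and endothelium fell in part. Of 16 tested genes 2 fell and 0 rose, 12.5% against 5.04% of all tested genes, with a median of -0.20. Tal1 and Lmo2 are partners in 1 transcription complex of blood and endothelial precursors. Transcripts of tal1 (ENSDARG00000019930) stood at 107%, 91.7% and 102% across het 1 to het 3, against 33.7%, 31.8% and 33.3% across hom 2, hom a and hom b. Those of lmo2 (ENSDARG00000095019) stood at 112%, 90.6% and 98.3% across het 1 to het 3, against 44.2%, 45.2% and 40.6% across hom 2, hom a and hom b. Homozygous libraries agreed closely with each other for both genes, and tal1 fell by 1.60 on the log2 scale (SE 0.08, adjusted p = 0.000252) and lmo2 fell by 1.21 on the log2 scale (SE 0.09, adjusted p = 0.00163). The erythroid regulator gene gata1a lay at 0.41 and did not pass (adjusted p = 0.185), and neither did gfi1ab at -1.69 (adjusted p = 0.204), whose homozygous values spread from 76.9% in hom 2 to 9.58% in hom b. tal1 and lmo2 passed with each library left out in turn.

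Some myeloid genes and a few red blood cell genes fell. Of 14 tested myeloid genes 12 lay below 0, with a median of -0.66, and 5 fell, 35.7% against 5.04% of all tested genes. Besides INPP5D these were the chemokine receptor gene cxcr3.2 (ENSDARG00000041041), at 124%, 56.4% and 143% across het 1 to het 3, against 16.9%, 17.4% and 20.3% across hom 2, hom a and hom b, the GTPase gene rac2 (-0.96, adjusted p = 0.0187), and the transcription factor genes cebpb (-0.79, adjusted p = 0.00506) and cebpa (-0.78, adjusted p = 0.0433). cxcr3.2 fell by 2.46 on the log2 scale (SE 0.34, adjusted p = 0.0116), and het 2 lay closest to the homozygous values. The myeloid master regulator gene, spi1 in the file, lay at -0.54 and did not pass (adjusted p = 0.202). cxcr3.2 and cebpb passed with each library left out in turn. rac2 did not pass when het 2, het 3, hom 2, hom a or hom b was left out (adjusted p 0.0542 to 0.077). cebpa did not pass once any 1 of the 6 libraries was left out (adjusted p 0.054 to 0.124). Without single libraries the list had fewer falls, 3 without het 1, 2 without het 2, 2 without het 3, 3 without hom 2, 2 without hom a and 2 without hom b. Of 25 tested erythroid and heme genes 4 fell and 0 rose, 16% against 5.04% of all tested genes. The median was 0.02, and only 10 of the 25 lay below 0. By limma at an unadjusted p below 0.05, 5 were lower and 5 higher. The falls were those of nt5c2l1 (-0.96, adjusted p = 0.0247), the carbonic anhydrase gene cahz (-0.73, adjusted p = 0.00934), the transcription factor gene klf3 (-0.58, adjusted p = 0.00862) and the biliverdin reductase gene blvrb (-0.35, adjusted p = 0.0467). The heme synthesis gene alas2, a marker of red blood cells, stood at 108%, 94.6% and 98.3% across het 1 to het 3, against 125%, 125% and 117% across hom 2, hom a and hom b and did not pass (adjusted p = 0.067). cahz and klf3 passed with each library left out in turn. nt5c2l1 did not pass when het 2, het 3 or hom a was left out (adjusted p 0.0602 to 0.0852). blvrb did not pass once any 1 of the 6 libraries was left out (adjusted p 0.0739 to 0.159). The number of falls in the list was 2 without het 2, 2 without het 3 and 2 without hom a.

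Genes of the yolk and of plasma lipid transport fell in large number. In zebrafish embryos the yolk syncytial layer, a cell layer around the yolk, packs yolk lipid into lipoproteins, and with the early liver it expresses many plasma protein genes. Of 30 tested genes 23 fell and 0 rose, 76.7% against 5.04% of all tested genes, with a median of -1.58, and 29 lay below 0. The list median stood at 86.2%, 110.2% and 106% across het 1 to het 3, against 43.9%, 41.6% and 22.9% across hom 2, hom a and hom b. Hom b was the lowest library and het 1 the lowest of the heterozygous ones. The apolipoprotein gene apoa2 (ENSDARG00000015866) stood at 86.5%, 111% and 104% across het 1 to het 3, against 33.4%, 26.5% and 14.5% across hom 2, hom a and hom b. The fatty acid binding protein gene fabp1b.1 (ENSDARG00000059227) stood at 83.6%, 117% and 102% across het 1 to het 3, against 31.6%, 30.1% and 14% across hom 2, hom a and hom b. The microsomal transfer protein that loads lipid onto apolipoprotein B is encoded by mtp (ENSDARG00000076271), which stood at 84.8%, 106% and 112% across het 1 to het 3, against 41.4%, 37.6% and 21.3% across hom 2, hom a and hom b. In all 3 genes hom b was lowest, as in the list median. apoa2 fell by 2.09 on the log2 scale (SE 0.28, adjusted p = 0.0105), fabp1b.1 fell by 2.08 on the log2 scale (SE 0.30, adjusted p = 0.0131) and mtp fell by 1.64 on the log2 scale (SE 0.24, adjusted p = 0.0138), the last named after its values were seen. The other largest falls of the list were those of the fibrinogen gene fgg (-2.07, adjusted p = 0.0203), the transferrin gene tfa (-1.99, adjusted p = 0.0131), and the antitrypsin genes serpina1l (-1.91, adjusted p = 0.0249) and serpina1 (-1.89, adjusted p = 0.0131), close copies whose reads the counting may have split. Also named after their values were seen, apoa1a (-1.42, adjusted p = 0.0217) and the transcription factor gene hnf4a (-1.19, adjusted p = 0.00461), known for control of lipid and liver genes, fell.

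hnf4a passed with each library left out in turn. apoa2, fabp1b.1, tfa, serpina1 and mtp did not pass when het 2 was left out (adjusted p 0.0552 to 0.065). serpina1l did not pass when het 2, het 3 or hom a was left out (adjusted p 0.0513 to 0.093). apoa1a did not pass when het 1, het 2 or het 3 was left out (adjusted p 0.0548 to 0.0855). fgg did not pass when het 2, het 3, hom a or hom b was left out (adjusted p 0.0539 to 0.0787). For the whole list of yolk and plasma genes, 19 fell without het 1, 3 without het 2, 11 without het 3 and 16 without hom a. Without hom b, the lowest library, 21 fell, and without hom 2 the number was 24. No member of the list was called at 24 hpf, where the median of its 29 tested genes was 0.10.

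**Figure D3:**
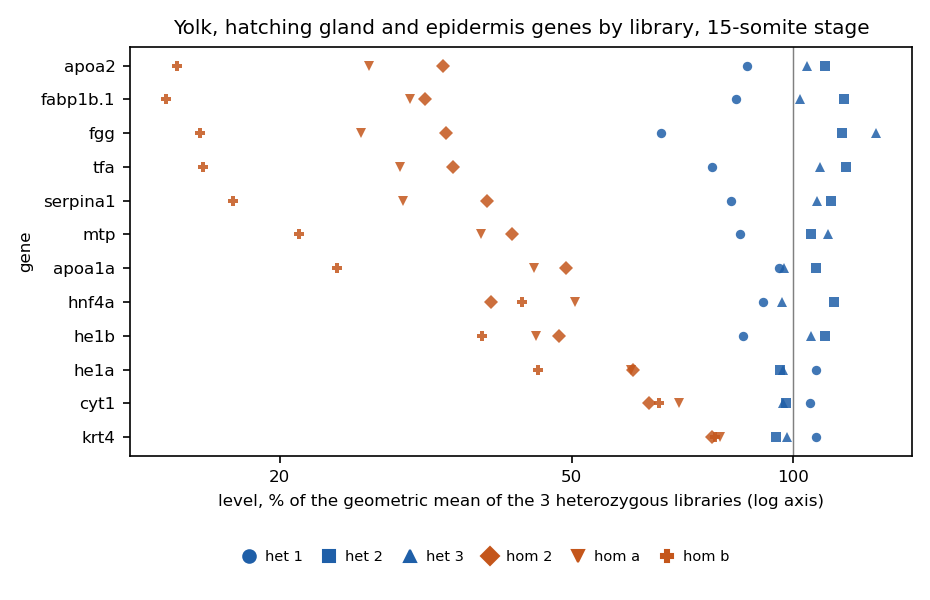
Level of genes of the yolk and plasma list (apoa2, fabp1b.1, fgg, tfa, serpina1, mtp, apoa1a, hnf4a), the hatching gland (he1b, he1a) and the epidermis (cyt1, krt4) in each library (horizontal log axis, percent of the geometric mean of the heterozygous libraries). Blue symbols are heterozygous and orange symbols homozygous libraries, 1 point per library with no error bar. Hom b is the lowest library for most yolk and plasma genes, and for krt4 the homozygous points lie between 77.7% and 79.6%.

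Further gene families were counted after their values were seen, so that their counts are a description. Of 22 tested complement genes, which encode plasma proteins of innate defence, 12 fell and 0 rose, with a median of -1.09. Of 17 tested genes of coagulation and plasminogen 9 fell, with a median of -1.2, fgg and fgb being members of the yolk and plasma list as well. Of 15 tested cathepsin genes, which encode proteases of lysosomes, 8 fell, with a median of -1.06, and of 26 tested genes of cytochrome P450 family 2, which oxidise lipids and foreign compounds, 8 fell, with a median of -0.44. Of 9 tested aquaporin genes 6 fell, those of vessels among them. The shares called in these families, in the order given, were 54.5%, 52.9%, 53.3%, 30.8% and 66.7%, against 5.04% of all tested genes. The prothrombin gene f2 (ENSDARG00000036041) stood at 80.6%, 111% and 112% across het 1 to het 3, against 39.6%, 35.3% and 25.9% across hom 2, hom a and hom b and fell by 1.59 on the log2 scale (SE 0.18, adjusted p = 0.00706). The complement gene c3a (-1.45, adjusted p = 0.0256), the cathepsin gene ctsk (-1.26, adjusted p = 0.00706), the cytochrome gene cyp2aa4 (-1.22, adjusted p = 0.00706), the aquaporin gene aqp12 (-2.04, adjusted p = 0.0122) and the zinc transporter gene slc30a1b (-2.14, adjusted p = 0.00708) fell too. None of the 48 tested hox genes, which pattern the body axis, was called by limma (1 lower and 9 higher at an unadjusted p below 0.05), and their median was 0.07. f2, ctsk, cyp2aa4 and slc30a1b passed with each library left out in turn. aqp12 did not pass when het 2 was left out (adjusted p = 0.0559). c3a did not pass when het 2, het 3 or hom a was left out (adjusted p 0.0679 to 0.0939). Without het 2, the falls numbered 2 for complement, 2 for coagulation, 4 for cathepsins, 1 for cytochromes and 2 for aquaporins. In the same order they numbered 4, 5, 4, 4 and 2 without het 3. Without hom 2 they were 5, 9, 7, 7 and 3, and without hom a 6, 7, 6, 5 and 5. Without hom b the numbers were 6, 8, 8, 3 and 2, and without het 1 they were 11, 7, 6, 8 and 4.

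Many epidermal genes fell by small amounts. Of 30 tested genes of epidermis and keratins 16 fell and 0 rose, 53.3% against 5.04% of all tested genes. The list median was -0.31, with not 1 of the 30 above 0. The list median stood at 100.5%, 99.8% and 98.2% across het 1 to het 3, against 77.9%, 81.2% and 82.6% across hom 2, hom a and hom b. The type I keratin gene cyt1 (ENSDARG00000092947) stood at 106%, 98% and 96.8% across het 1 to het 3, against 63.6%, 69.9% and 65.7% across hom 2, hom a and hom b, with reads that its near copy cyt1l may share. The keratin gene krt4 (ENSDARG00000017624) of the outer epidermal layer stood at 107%, 94.9% and 98.1% across het 1 to het 3, against 77.7%, 79.6% and 78.4% across hom 2, hom a and hom b. The homozygous libraries were alike in both genes, and cyt1 fell by 0.59 on the log2 scale (SE 0.07, adjusted p = 0.00715) and krt4 fell by 0.35 on the log2 scale (SE 0.07, adjusted p = 0.0325), krt4 being named after its values were seen. Other falls were those of icn (-0.69, adjusted p = 0.019), the annexin genes anxa1a (-0.56, adjusted p = 0.0218) and anxa1c (-0.55, adjusted p = 0.0099), and krt17 (-0.53, adjusted p = 0.0131). cyt1 and anxa1c passed with each library left out in turn. krt17 did not pass when het 2 was left out (adjusted p = 0.0582). icn did not pass when het 2, hom 2 or hom a was left out (adjusted p 0.0523 to 0.0702). anxa1a did not pass when het 2, het 3, hom 2 or hom b was left out (adjusted p 0.0592 to 0.074). krt4 did not pass when het 2, het 3, hom 2, hom a or hom b was left out (adjusted p 0.0703 to 0.112). The number of falls in the list was 4 without het 2, 7 without het 3, 6 without hom 2, 7 without hom a and 9 without hom b. Without het 1, which stood apart from the other libraries, 13 of the epidermal genes, 7 of the hatching gland genes and 19 of the yolk and plasma genes fell, and 12 genes of the clock list rose, against 16, 8, 23 and 13 with all 6 libraries.

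The hatching gland, whose cells store the enzymes that later open the egg envelope, also had many falls. Of 11 tested genes 8 fell and 0 rose, 72.7% against 5.04% of all tested genes. All 11 lay below 0, and the median was -0.59, although tfa, 1 of the 8, also belongs to the yolk and plasma list. The hatching enzyme gene he1b (ENSDARG00000019122) stood at 85.5%, 110.5% and 106% across het 1 to het 3, against 48.1%, 44.6% and 37.7% across hom 2, hom a and hom b. Its copy he1a (ENSDARG00000023656) stood at 108%, 95.9% and 97% across het 1 to het 3, against 60.5%, 60.2% and 45% across hom 2, hom a and hom b. Both were lowest in hom b, and he1b fell by 1.21 on the log2 scale (SE 0.13, adjusted p = 0.00506) and he1a fell by 0.87 on the log2 scale (SE 0.12, adjusted p = 0.0126), though near-identical hatching enzyme genes may share reads. The cathepsin gene ctsl1b (-1.08, adjusted p = 0.00701), the secretory pathway gene agr2 (-0.70, adjusted p = 0.0146) and cd63 (-0.50, adjusted p = 0.0122) fell as well. he1b and ctsl1b passed with each library left out in turn. he1a, agr2 and cd63 did not pass when het 2 was left out (adjusted p 0.0552 to 0.0676). Without single libraries the list had fewer falls, 2 without het 2.

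Smaller numbers of genes fell in kidney, ionocytes, heart and endoderm, and most of these calls were lost when single libraries were left out. The shares called were 20.8% of pronephros and ionocyte genes, 14.3% of heart genes and 18.2% of endoderm genes, against 5.04% of all tested genes. Of 24 tested genes of pronephros and ionocytes 5 fell, with a median of -0.24: the kidney transporter gene slc12a1 (-1.38, adjusted p = 0.036), the ionocyte factor gene foxi3b (-0.99, adjusted p = 0.0278), and the ion transport genes slc4a4a (-0.71, adjusted p = 0.0392), atp1a1a.4 (-0.54, adjusted p = 0.023) and ca2 (-0.31, adjusted p = 0.0367). The kidney regulator gene pax2a lay at 0.19 (adjusted p = 0.145). slc12a1, slc4a4a and ca2 did not pass when het 2, het 3, hom 2, hom a or hom b was left out (adjusted p 0.0667 to 0.133). foxi3b did not pass when het 2, het 3, hom a or hom b was left out (adjusted p 0.0771 to 0.102). atp1a1a.4 did not pass when het 1, hom 2, hom a or hom b was left out (adjusted p 0.0533 to 0.0811). The number of falls in the list was 1 without het 2, 1 without het 3, 1 without hom 2, 0 without hom a and 0 without hom b. Of 21 tested heart genes 3 fell, with a median of -0.24, namely the regulator genes gata4 (-1.38, adjusted p = 0.0364), gata5 (-1.0, adjusted p = 0.0402) and hand2 (-0.48, adjusted p = 0.0477), which also act in endoderm or lateral mesoderm. The heart markers nkx2.5 at -0.36 (adjusted p = 0.267) and myl7 at -0.47 (adjusted p = 0.25) did not pass. gata4 did not pass when het 2, het 3, hom 2, hom a or hom b was left out (adjusted p 0.065 to 0.122). gata5 did not pass when het 1, het 2, het 3, hom a or hom b was left out (adjusted p 0.0547 to 0.126). hand2 did not pass when het 1, het 2, het 3, hom 2 or hom b was left out (adjusted p 0.0906 to 0.152). Without single libraries the list had fewer falls, 1 without het 1, 0 without het 2, 0 without het 3, 1 without hom 2, 1 without hom a and 0 without hom b. Of 11 endoderm genes 2 fell, hnf4a and gata5, both counted above.

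Of the 31 lists, that of the circadian clock and the response to light held the most rises. In zebrafish most cells hold a clock of their own that light can set, and light switches on per2, cry1a and several DNA repair genes. Of 46 tested genes 13 rose and 2 fell, 32.6% against 5.04% of all genes, and the median was 0.24. As the list was written with earlier results of these data known, its share is a description and not a test. The period gene per2 (ENSDARG00000034503) stood at 111%, 94.5% and 95.1% across het 1 to het 3, against 241%, 224% and 218% across hom 2, hom a and hom b. The cryptochrome gene cry1a (ENSDARG00000045768), a repressor of the clock, stood at 88.5%, 109.6% and 103% across het 1 to het 3, against 239%, 208% and 289% across hom 2, hom a and hom b. Lonrf1l is a RING finger protein, and its gene lonrf1l (ENSDARG00000078567) stood at 88.7%, 104% and 108% across het 1 to het 3, against 271%, 269% and 255% across hom 2, hom a and hom b. Every homozygous library was more than 2-fold above the heterozygous mean for all of these, with no overlap, and the rises were 1.18 on the log2 scale (SE 0.09, adjusted p = 0.00125), 1.28 on the log2 scale (SE 0.13, adjusted p = 0.00506) and 1.40 on the log2 scale (SE 0.09, adjusted p = 0.000601). The photolyase-family gene cry5 (1.55, adjusted p = 0.0206), lonrf1 (0.92, adjusted p = 0.0131) and per3 (0.81, adjusted p = 0.0118) complete the 6 largest rises. Named after their values were seen, per1b (0.79, adjusted p = 0.00337), cry2b (0.69, adjusted p = 0.00946) and the DNA repair gene ddb2 (0.46, adjusted p = 0.0123) rose too.

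**Figure D4:**
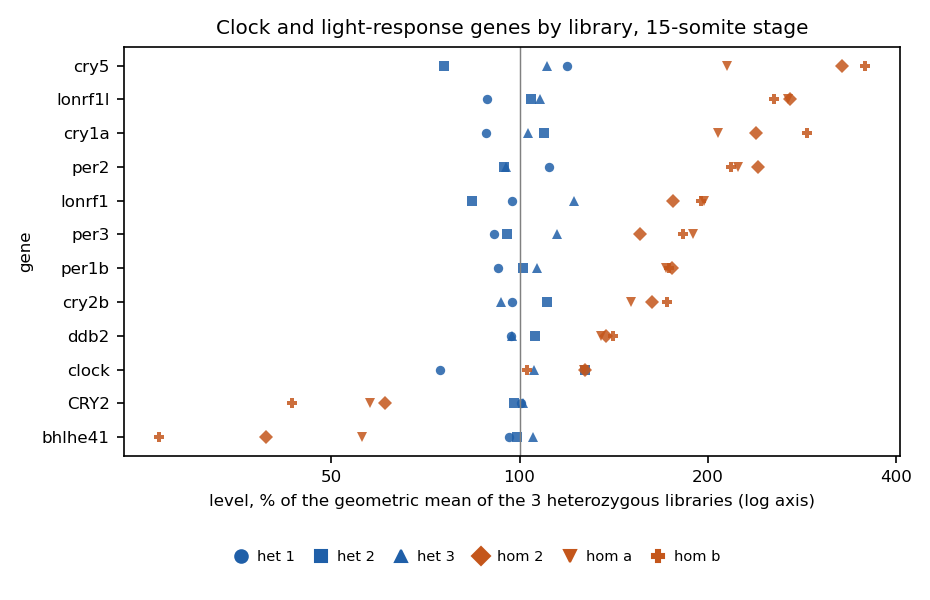
Level of clock and light-response genes in each library at the 15-somite stage (horizontal log axis, percent of the geometric mean of the heterozygous libraries). Blue symbols are heterozygous and orange symbols homozygous libraries, 1 point per library with no error bar. The first 9 genes are higher in all homozygous libraries, CRY2 and bhlhe41 are lower in all 3, and the genotypes overlap for clock.

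The falls of the clock list were those of the repressor gene bhlhe41 (ENSDARG00000041691), at 96.2%, 99.1% and 105% across het 1 to het 3, against 39.2%, 56% and 26.5% across hom 2, hom a and hom b, and CRY2 (-0.91, adjusted p = 0.0117). bhlhe41 fell by 1.37 on the log2 scale (SE 0.23, adjusted p = 0.021). The activator gene clock stood at 74.5%, 127% and 105% across het 1 to het 3, against 128%, 127% and 103% across hom 2, hom a and hom b, and its genotypes overlapped (adjusted p = 0.589). per2, cry1a, lonrf1l, lonrf1, per1b, cry2b and ddb2 passed with each library left out in turn. per3 and CRY2 did not pass when het 2 was left out (adjusted p 0.0554 to 0.0582). cry5 did not pass when het 2, het 3, hom 2 or hom b was left out (adjusted p 0.0541 to 0.0744). bhlhe41 did not pass when het 1, het 2, het 3 or hom 2 was left out (adjusted p 0.0542 to 0.0799). The number of rises in the list was 7 without het 2 and 8 without hom b.

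The 15 largest rises of genes with a descriptive symbol also included genes outside the clock. The largest of all called rises was that of soul5 (ENSDARG00000075015), a gene of the heme-binding SOUL family, which stood at 184%, 63.4% and 85.5% across het 1 to het 3, against 2000%, 846% and 532% across hom 2, hom a and hom b. Homozygous libraries differed from each other by more than 3-fold, and the rise was 3.27 on the log2 scale (SE 0.53, adjusted p = 0.0177). The next 2 called rises by size were of rows with clone names and are not described. Otoancorin, a protein of the inner ear, is encoded by OTOA (ENSDARG00000080675), which stood at 71.7%, 126% and 111% across het 1 to het 3, against 327%, 325% and 362% across hom 2, hom a and hom b and rose by 1.76 on the log2 scale (SE 0.24, adjusted p = 0.0107). The glutamate decarboxylase gene gad1a (1.46, adjusted p = 0.0105), the nuclease gene tatdn2 (1.37, adjusted p = 0.0099), fam131bb (1.3, adjusted p = 0.0145), crtac1a (1.92, adjusted p = 0.0283), the heparanase-family gene hpse2 (1.59, adjusted p = 0.0459), the chemokine receptor gene ccr10 (1.35, adjusted p = 0.0428), the scaffold gene shank2 (1.2, adjusted p = 0.0489) and the kinase gene stk32a (1.17, adjusted p = 0.0342) also rose. A row of the signal recognition particle RNA, Metazoa_SRP (1.98, adjusted p = 0.0146), is a repeated-copy RNA whose reads cannot be placed with certainty. Where a symbol stood on several tested rows, only its called row was named. OTOA, gad1a and tatdn2 passed with each library left out in turn. Metazoa_SRP did not pass when het 2 was left out (adjusted p = 0.065). fam131bb did not pass when hom a or hom b was left out (adjusted p 0.0501 to 0.0541). soul5 did not pass when het 2, het 3 or hom a was left out (adjusted p 0.0525 to 0.0723). crtac1a did not pass when het 1, het 2, hom 2 or hom b was left out (adjusted p 0.0696 to 0.1). hpse2 and shank2 did not pass when het 1, het 2, hom 2, hom a or hom b was left out (adjusted p 0.0693 to 0.153). stk32a did not pass when het 1, het 2, het 3, hom 2 or hom b was left out (adjusted p 0.0793 to 0.089). ccr10 did not pass once any 1 of the 6 libraries was left out (adjusted p 0.0567 to 0.125).

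Most other tissues showed few or no called genes. Of 32 tested genes of presomitic mesoderm and muscle specification 2 rose, tbx6 (0.51, adjusted p = 0.0434), a factor of presomitic mesoderm, and mef2d (0.39, adjusted p = 0.049), and the median was 0.11. Of 40 tested genes of the contractile apparatus the titin gene ttnb rose (0.44, adjusted p = 0.0324) and the glycolytic gene eno3 fell (-0.52, adjusted p = 0.0195), while the muscle regulator gene myod1 lay at 0.19 (adjusted p = 0.341). Of 15 tested genes of sclerotome, fibroblasts and mural cells tagln2 fell (-0.29, adjusted p = 0.0453), and of 23 tested genes of the p53 and stress response hmox1 (-0.82, adjusted p = 0.0247) and hsp90aa1.2 (-0.64, adjusted p = 0.0499) fell. The shares called in these 4 lists, 6.25%, 5%, 6.67% and 8.7% in the order given, lay near the 5.04% of all tested genes, so the counts set none of them apart. tbx6 did not pass when het 1, het 2, het 3, hom a or hom b was left out (adjusted p 0.0785 to 0.144). mef2d did not pass once any 1 of the 6 libraries was left out (adjusted p 0.0698 to 0.163). ttnb did not pass when het 1, het 2, het 3, hom 2 or hom b was left out (adjusted p 0.0505 to 0.117). eno3 did not pass when het 3, hom a or hom b was left out (adjusted p 0.0553 to 0.0752). tagln2 did not pass when het 2, het 3, hom 2, hom a or hom b was left out (adjusted p 0.103 to 0.141). hmox1 did not pass when het 2, het 3, hom a or hom b was left out (adjusted p 0.0686 to 0.0876). hsp90aa1.2 did not pass when het 1, het 2, het 3, hom 2 or hom a was left out (adjusted p 0.0523 to 0.153). No gene was called by limma in the lists of neural, notochord and floor plate, neural crest and pigment, germ cell, cell cycle and hypoxia genes, with 30, 13, 19, 10, 23 and 23 tested. At an unadjusted p below 0.05, 1 neural gene was lower and 6 were higher, 2 and 4 of the notochord list, 2 and 0 of the neural crest list, 1 and 0 of the germ cell list, 2 and 0 of the cell cycle list, and 4 and 1 of the hypoxia list. The neuronal marker elavl3 lay at 0.45 (adjusted p = 0.0549), the notochord gene col2a1a at 0.18 (adjusted p = 0.181), the neural crest gene sox10 at 0.11 (adjusted p = 0.403) and the germ cell gene nanos3 at -0.49 (adjusted p = 0.16). None of these passed, which does not show that the levels were equal.

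The same 2 genotypes were compared at 24 hpf, where fewer genes were called: 63 fell (0.337% of 18700 tested) and 6 rose (0.0321%). With fewer calls the cutoff after adjustment was stricter than at the 15-somite stage, so a gene not called at 24 hpf may still differ. Of the 723 falls of the 15-somite stage, 693 were tested at 24 hpf, 332 were again below 0 and 39 fell again, with a median 24 hpf difference of 0.01. Of the 190 rises, 184 were tested, 106 were again above 0 and 4 rose again. Both sets were chosen by their 15-somite calls, which by itself favours smaller differences at 24 hpf. The difference between the stages was tested as an interaction in limma over the 17474 genes tested at both, and 630 genes (3.61%) differed, among them 399 of the falls and 61 of the rises. That total ranged from 181 (without het 2 of 24 hpf) to 687 (without het 1 of the 15-somite stage) with 1 of the 12 libraries left out. The embryos of the stages were kept at different temperatures, so that stage and temperature cannot be told apart.

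**Figure D5:**
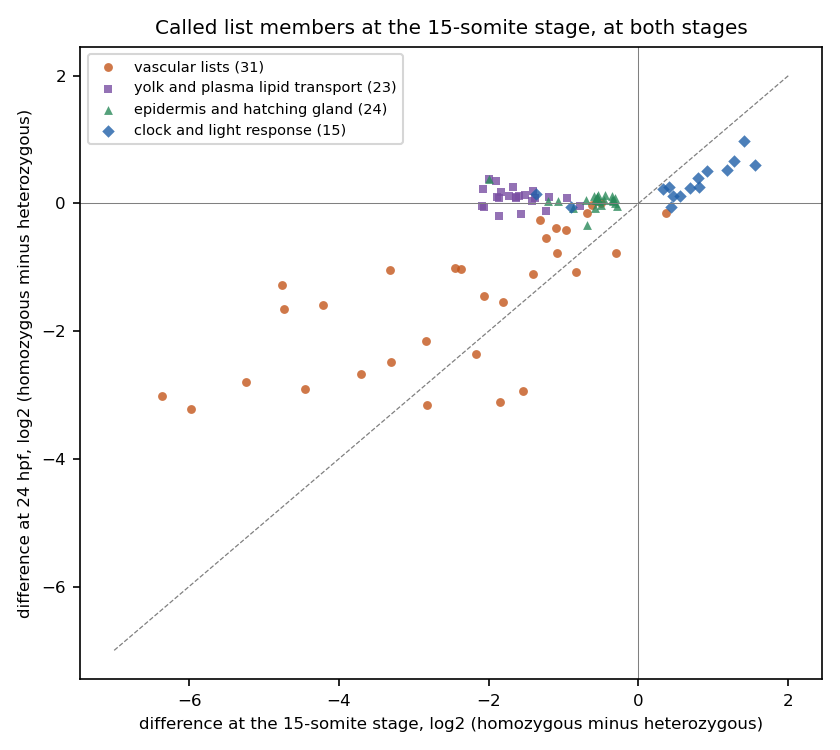
Difference at the 15-somite stage (horizontal axis) and at 24 hpf (vertical axis), both homozygous minus heterozygous on the log2 scale, for list members called at the 15-somite stage and tested at both. Circles are the 31 genes of the vascular lists, squares 23 genes of yolk and plasma, triangles 24 genes of epidermis and hatching gland and diamonds 15 genes of the clock; the dashed line marks equal differences. The yolk and plasma squares lie between -0.19 and 0.38 at 24 hpf, while 30 of the 31 circles lie below 0 there. The circles include etv2 itself and heg, which rose at the 15-somite stage.

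Group medians differed between the stages, a difference not tested for the groups themselves. The 31 called vascular genes had a median of -2.07 at 15 somites and -1.28 at 24 hpf. They include etv2 itself and heg, which had risen at 15 somites. For the 23 called yolk and plasma genes the medians were -1.64 and 0.10. Both groups hold only genes called at the 15-somite stage, a choice that by itself favours medians closer to 0 at 24 hpf. Over all tested members, called or not, medians of the vascular lists moved in both directions. They were 0.0043 at 15 somites and -0.15 at 24 hpf for VEGF genes. In that order they were -0.07 and -0.26 for junction and lumen, and 0.11 and -0.62 for scavenger receptors. ETS genes had -0.15 and -0.01, Tie genes -0.245 and -0.171, SoxF genes -2.88 and -1.03, and G-protein receptors -0.26 and -0.03. The genes tested were not all the same at both stages. Among the lists, 19 of 29 yolk and plasma genes, 14 of 30 epidermal genes, 6 of 11 hatching gland genes and 7 of 29 junction and lumen genes differed between the stages. The other vascular lists had 1 of 20 ETS, 1 of 15 VEGF, 1 of 7 Tie, 2 of 2 SoxF, 1 of 7 scavenger and 2 of 15 G-protein receptor genes. Over all genes tested at both stages 3.61% differed, so the lists with 1 such gene are not set apart. In the myeloid list 4 of 13 genes differed, of which 1 was called at the 15-somite stage. Its median was -0.66 over 14 tested genes at 15 somites, with 5 falls, where 3.99% of all tested genes fell. At 24 hpf it was lower, -1.46 over 19 tested genes, with 6 falls, where 0.337% of all tested genes fell. Among the largest falls, the change did not pass for flt1 (2.44, adjusted p = 0.0997), mrc1a (2.76, adjusted p = 0.067) and cldn5b (1.03, adjusted p = 0.197). For etv2 the 24 hpf difference was -3.15 (adjusted p = 0.0014) and the change between stages -0.32 (SE 0.28, adjusted p = 0.573), which did not pass. The change was 3.48 (SE 0.70, adjusted p = 0.0241) for cdh5, 3.08 (SE 0.27, adjusted p = 0.000584) for clec14a, 2.27 (SE 0.27, adjusted p = 0.00352) for sox7 and 1.54 (SE 0.12, adjusted p = 0.000584) for tal1, all closer to 0 at 24 hpf. For apoa2 it was 2.06 (SE 0.43, adjusted p = 0.0272), and for cyt1 0.71 (SE 0.09, adjusted p = 0.00434). In the opposite direction, aqp8a.1 was further from 0 at 24 hpf, at -6.39 (adjusted p = 0.0014), a change of -3.89 (SE 0.55, adjusted p = 0.0059), and the change of stab2 was -1.26 (SE 0.14, adjusted p = 0.0027). How near the floor the 24 hpf values of aqp8a.1 lie was not examined, so the size of its change is uncertain. The clock genes per2 and cry1a lay at 0.53 (adjusted p = 0.0401) and 0.66 (adjusted p = 0.00648) at 24 hpf, with changes of -0.66 (SE 0.12, adjusted p = 0.0159) and -0.62 (SE 0.16, adjusted p = 0.0524), of which the last did not pass. The change of clec14a, sox7, tal1, cyt1, aqp8a.1, stab2 and per2 passed with each of the 12 libraries left out in turn. The change of cdh5 did not pass without het 3 of 15 somites, het 2 of 24 hpf, het 3 of 24 hpf, hom 1 of 24 hpf or hom 2 of 24 hpf (adjusted p 0.0507 to 0.06). The change of apoa2 did not pass without het 2 of 15 somites, het 3 of 15 somites, het 2 of 24 hpf, het 3 of 24 hpf, hom 1 of 24 hpf or hom 2 of 24 hpf (adjusted p 0.0522 to 0.0705).

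By chromosome of the RefSeq assembly GRCz12tu, chromosome 16, which carries etv2, had the highest share of called genes. There 70 of 684 tested genes were called, 54 lower and 16 higher, or 10.2% against 5.04% of all genes, and chromosome 12 came next with 7.32%. RASIP1, OTOA and fam131bb, named above, are among the called genes of chromosome 16. Within 5 Mb of etv2, 11 of 125 genes fell and 0 rose (8.8%), and on the rest of the chromosome 43 fell and 16 rose of 559 (10.6%). The 11 include etv2 itself, its neighbour fli1b and tgfbr2. They also include more than 1 row matched to the RefSeq gene afp4 and more than 1 matched to zgc:174938. Such copies may share reads, so the 11 stand for fewer separate genes.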

How the data were processed

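RNA was sequenced from whole embryos, and the labels name an NEBNext Ultra library kit. The submitters' processing notes name Zv9 as genome build and DESeq as tool. Which aligner, counter and strand setting were used is not given in the sources used here, nor is any version. Log2 is the scale of the deposited tables. The values themselves show that each had been floored at 1 normalized unit before the log and that each row had been centred on its median over the 6 libraries of its stage. The step left by the stored binary precision placed each row's median in a class (below 4, 4 to 16, 16 to 256, 256 and above), and rows at 16 or above were tested. In rows with 2 or more libraries at the floor the class was known and was used instead. Of such rows known to lie below 16, the step alone put 3.79% at 16 or above at 15 somites. At 24 hpf the step alone put 8.24% there. Simulated tables of the 15-somite stage gave the right class for 95.3% of rows, and 1.07% of the rows passed lay below 16. Changes of 0.5, 1 and 2 on the log2 scale were called for 28.6%, 57.4% and 87.8% of the genes given them. The simulated noise had the same spread in every library of a row, so no library stood apart as het 1 did. Nor did the genotypes differ in spread within a row. The simulation gave 138 calls against 913 in the data, so its cutoff after adjustment was stricter. These shares therefore do not carry over directly to the data.

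Homozygous and heterozygous libraries were compared with limma 3.58.1 in R 4.3.3, with a prior spread per level class, two-sided, without a replicate block, and with Benjamini-Hochberg adjustment over all tested rows. The difference between stages was the interaction in 1 fit of all 12 libraries. Libraries left out in turn, another filter, 1 prior spread, quantile normalization, a median shift and a fit of all 12 libraries were the alternatives. With 1 library left out, the genotype with fewer libraries is assumed to vary like the other. The stage and genotype came from the column names. 2 homozygous columns of the 15-somite stage bear the same name, so their replicate is unknown.

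The named genes were etv2, the 15 largest falls and 15 largest rises among called genes with separate groups and a descriptive symbol, and up to 6 called genes per direction and list, with members not called in list order; further genes are said to have been chosen after their values were seen. The 31 lists and these rules were chosen with earlier results of these data known. Symbols and chromosomes came from the RefSeq annotation of GRCz12tu by symbol, matched for 19417 gene IDs, used for names, chromosome membership and distance from etv2.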

Additional observations from a re-analysis of the deposited data

Results flagged for a closer look

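Among the 136 genes named above, 130 were tested for a difference of the genotype effect between the stages, and 62 differed. The test was the limma interaction, adjusted p below 0.05 over all genes tested at both stages, of which 3.61% differed. Each value below is the 24 hpf difference minus the 15-somite difference on the log2 scale, from 3 libraries per genotype and stage. In 58 of these genes the difference was closer to 0 at 24 hpf, and in 4 it was further from 0. Most had been named because they were called at the 15-somite stage, a choice that by itself favours differences closer to 0 at 24 hpf.

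Among members of the vascular lists the change was 3.35 for gpr182, 3.48 for cdh5, 3.08 for clec14a, 2.62 for RASIP1, 2.27 for sox7 and 1.54 for tie1. It was 1.43 for sox18, 1.35 for she, 0.70 for fli1a and 0.61 for nrp1b. For falls outside these lists it was 2.90 for scarf1, 2.57 for shank3b and 1.48 for dusp5. Among blood genes it was 1.54 for tal1, 0.57 for lmo2, 0.56 for cebpb, 1.26 for nt5c2l1, 1.0 for cahz, 0.59 for klf3 and 0.49 for blvrb. These genes had fallen at the 15-somite stage. The genes further from 0 at 24 hpf gave -3.89 for aqp8a.1, -1.39 for vsg1, -1.26 for stab2 and -0.48 for aplnrb. How near the floor their 24 hpf values lie was not examined.

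Among yolk, plasma and related genes the change was 2.37 for tfa, 2.30 for fabp1b.1, 2.26 for serpina1l, 2.06 for apoa2, 2.02 for fgg, 1.99 for serpina1, 1.75 for mtp, 1.45 for apoa1a and 1.29 for hnf4a. It was 2.57 for slc30a1b, 1.96 for aqp12, 1.71 for f2, 1.63 for c3a, 0.93 for cyp2aa4 and 0.74 for ctsk. Among genes of epidermis and hatching gland it was 0.71 for cyt1, 0.65 for anxa1c, 0.61 for anxa1a, 0.57 for krt17, 0.40 for krt4, 1.11 for ctsl1b, 0.76 for agr2 and 0.47 for cd63. Of the other falls, the change was 0.91 for atp1a1a.4, 0.77 for slc4a4a, 0.49 for ca2, 0.84 for hmox1 and 0.51 for eno3.

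Of the clock genes that had fallen, the change was 1.52 for bhlhe41 and 0.86 for CRY2, and of those that had risen -0.66 for per2 and -0.40 for per1b. The other genes above 0 at the 15-somite stage gave -1.93 for shank2, -1.64 for gad1a, -1.14 for fam131bb, -0.51 for heg, -0.51 for elavl3 and -0.30 for spry4.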

How the results depend on the processing

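No paired analysis was possible because the homozygous columns of the 15-somite stage share only 1 usable replicate number with the heterozygous ones, which holds for the test between the stages too. The count of called genes, 913, was 328 with 1 prior spread for all genes and 1948 with all 12 libraries in one fit, and ranged from 167 to 727 with 1 library left out. The falls, 723, numbered 276 and 1218 under these settings and 139 to 593 with 1 library left out. The rises, 190, numbered 113 without the filter on level, 52 with 1 prior spread, 356 after quantile normalization, 730 with all 12 libraries and 28 to 134 with 1 library left out. For the difference between the stages, 630 genes became 181 to 687 with 1 library left out. The cause of these moves was not tested. The fall of etv2 passed under every setting. No named gene changed direction under a setting that was run. Among the other named genes, 45 were no longer called with 1 prior spread, 16 without the filter and 1 after a median shift. Depth sets a limit for genes with a median below 16 normalized units, which were not tested.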
